A study of Danio rerio with 6 samples.

Results

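Translation factor and aminoacyl-tRNA synthetase genes were examined in caudal fin regenerates of larval zebrafish exposed to beclomethasone, a synthetic glucocorticoid. The members were all genes on the array whose single annotated symbol starts with eif or eef, has the form of a tRNA synthetase symbol (1 letter, ars and an optional 1 or 2), or starts with eprs, farsa, farsb or aimp. This gave 88 of the 8793 genes named by a single symbol, measured by 112 probe sets, with 51 initiation, 13 elongation and 24 synthetase genes. Roles followed the symbol, so all eif genes count as initiation and all eef genes as elongation. The initiation group thus includes eif2ak3, eif4a3, eif5a, eif5a2 and the eif4ebp genes, and the elongation group eef2k and eef1akmt2. No member was removed by a filter on low values. Larvae of the AB strain had the caudal fin amputated at 2 days post fertilization. The exposed pools, called beclomethasone pools 1 to 3, were kept in water with 1 uM beclomethasone until the regenerates were taken 1 day after amputation. Control pools 1 to 3 were AB larvae amputated at the same age and sampled at the same time without beclomethasone. The series text calls them vehicle controls and the protocol of the exposed samples names DMSO as the vehicle, while the protocol written for the control samples is that of a regeneration time course and names no vehicle. Each pool held 150 fins and was hybridised to 1 array, and the age, strain and amputation were shared by both groups.

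A protein begins when initiation factors bring the initiator tRNA and the small ribosomal subunit to the capped end of an mRNA. eIF2 carries the initiator tRNA, eIF2B recharges eIF2 with GTP, the many-subunit eIF3 organises the small subunit, and the eIF4 group binds the cap and unwinds the leader. Elongation factor eEF1A then delivers charged tRNAs and eEF2 moves the ribosome by a codon, while the synthetases attach each amino acid to its tRNA. Cells adjust the pathway mostly by phosphorylation of its proteins, which an array of transcripts does not see. In mammals glucocorticoids are known to restrain protein synthesis in skeletal muscle.

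The deposited values were ratios to a divisor that, in most probe sets, was its median across all 6 pools. They show differences between pools and carry no expression level, so levels of different genes cannot be set against each other, and the labelled tissue could not be checked by the level of its markers. A gene's value is the mean log2 ratio of its probe sets. Ratios are printed per pool, and differences are beclomethasone minus control on the log2 scale with the standard error of the limma fit (n = 3 pools per group). A gene is said to have risen or fallen where the limma p-value, adjusted by Benjamini-Hochberg over all 8793 genes, was under 0.05. Whether the pools came from separate clutches is not stated, so p-values measure the spread between these pools. In pooled fins, fewer cells of a type and less RNA per cell cannot be told apart.

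Most translation genes differed little between beclomethasone-exposed and control fins, and so did most genes tested. Among the 88 members, eef2k and eef2l2 rose and eif4a2 fell. These 3 genes are 3.41% of the members, and 8.83% of all genes tested passed in either direction (4.24% higher and 4.58% lower). Before adjustment, at p under 0.05, 13 members were higher and 5 lower, while 12.7% of all genes were higher and 11.4% lower. The values of the beclomethasone and control pools did not overlap for 19 members on the higher side and 7 on the lower side, against 16.0% and 13.7% of all genes (29.7% together). The median difference was 0.05 for the members and 0.02 for all genes, and the median size of the difference, without its sign, was 0.13 for the members and 0.15 for all genes. Differences beyond 1.5-fold were found in 5 members (5.68%), namely eef1a1b, eef2k, eef2l2, eif4a2 and eif4ebp3l, and in 11.2% of all genes.

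The fit also limits how large an unseen difference of the ratios could be. As signal over background is unknown, these limits do not carry over to amounts of transcript. The 95% interval of the difference lay within 1.5-fold on either side for 67 of the 88 members (76.1%) and for 65.7% of all genes. It lay within 2-fold for 85 members (96.6%) and for 88.0% of all genes. The 3 members with a wider interval were eef1a1b (0.08 to 1.56), eif4ebp3l (-0.004 to 1.23) and iars1 (-0.02 to 1.18). The standard errors of the members ran from 0.08 to 0.32 with a median of 0.12, the same median as over all genes to 2 decimals.

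**Figure D1:**
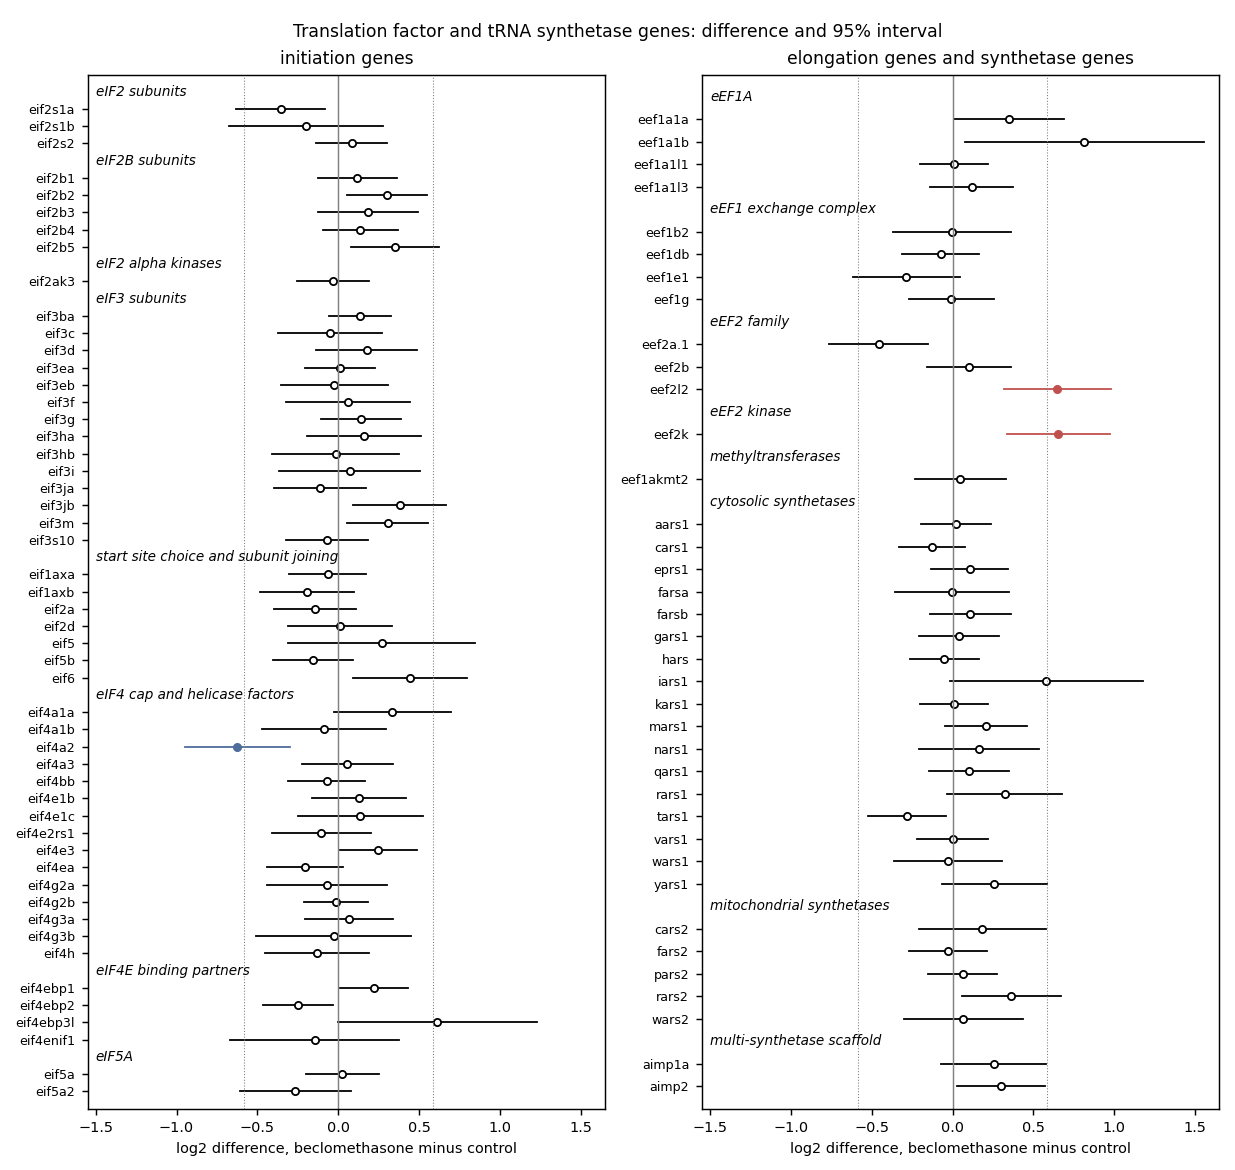
Log2 difference (beclomethasone minus control, horizontal axis) of each of the 88 member genes, grouped by role, with the 95% interval of the limma fit as a line (n = 3 pools per group). Filled points passed at an adjusted p under 0.05 (red higher, blue lower), open points did not, and dotted lines mark 1.5-fold. Eef2k, eef2l2 and eif4a2 are filled, and most other intervals cross 0.

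The initiation group held 51 genes, of which 1 fell and none rose in limma (1.96%, against 8.83% of all genes in either direction). At an unadjusted p under 0.05, 7 were higher and 3 lower, against 12.7% and 11.4% of all genes. The median difference of the group was 0.01, and -0.001 when the arrays were centred on their medians. The 3 genes of eIF2, which carries the initiator tRNA, did not pass in limma. The median size of their differences, without sign, was 0.20, against 0.15 for all genes. For eif2s1a, which encodes the alpha subunit of eIF2 that carries the regulatory phosphorylation site, the ratios were 0.947, 0.963 and 0.896 in beclomethasone pools 1 to 3, and 1.04, 1.25 and 1.32 in control pools 1 to 3. The groups did not overlap, but the difference of -0.36 ± 0.12 did not pass (adjusted p = 0.111). The further alpha subunit gene eif2s1b had a value of -0.20 ± 0.20 (adjusted p = 0.638) with overlapping groups, and the beta subunit gene eif2s2 had 0.08 ± 0.09 (adjusted p = 0.673).

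The genes of eIF2B, the exchange factor that recharges eIF2, all had differences above 0, and none of the 5 passed in limma. The values ran from 0.12 for eif2b1 to 0.35 for eif2b5. Of the 5, 2 were higher at an unadjusted p under 0.05, against 12.7% of all genes. All 5 were also above 0 after quantile normalization and after centring. Eif2b5, the catalytic epsilon subunit, had ratios of 1.03, 1.13 and 1.1 in beclomethasone pools 1 to 3, and 0.973, 0.823 and 0.767 in control pools 1 to 3. Its difference was 0.35 ± 0.12 (adjusted p = 0.113). Eif2b2, the beta subunit, had 1.16, 1.07 and 1.04 in the beclomethasone pools and 0.961, 0.892 and 0.805 in the control pools, a difference of 0.30 ± 0.11 (adjusted p = 0.132). In both genes every beclomethasone pool lay above every control pool, by a margin smaller than the range of the control pools. Eif2b3 (0.18), eif2b4 (0.13) and eif2b1 had overlapping groups. Of the kinases that phosphorylate eIF2 alpha, eif2ak3, the sensor of unfolded proteins also called PERK, was matched to probe sets. Its difference was -0.03 ± 0.10 (adjusted p = 0.888). Of its 3 probe sets, 2 had a median below 1, where the divisor of the ratio is unknown, and gave 0.05 and 0.04. The other gave -0.18 ± 0.11 (adjusted p = 0.439 over all probe sets), without overlap. The gene's difference is the mean of the 3, and signal over background is unknown. The value near 0 therefore does not show that the eif2ak3 transcript was unchanged.

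The 14 eIF3 subunit genes ran from -0.11 (eif3ja) to 0.38 (eif3jb), with a median of 0.07 and none passing in limma. Of these genes, 2 were higher at an unadjusted p under 0.05, against 12.7% of all genes. Eif3jb and eif3ja encode co-orthologs of the loosely bound j subunit. Eif3jb had ratios of 1.40, 1.19 and 1.05 in beclomethasone pools 1 to 3 and 0.888, 0.939 and 0.947 in control pools 1 to 3 (0.38 ± 0.12, adjusted p = 0.107). Eif3ja had 1.03, 0.925 and 1.00 in the beclomethasone pools and 0.998, 1.24 and 0.971 in the control pools (-0.11 ± 0.12, adjusted p = 0.66). The eif3jb groups did not overlap and the eif3ja groups did. Eif3m was higher in every beclomethasone pool (1.05, 1.04 and 1.21) than in the control pools (0.961, 0.832 and 0.877), with a difference of 0.31 ± 0.11 (adjusted p = 0.131). Eif3ba, of the scaffold subunit b, was the tightest of the group: 1.05, 1.06 and 1.04 in the beclomethasone pools against 0.956, 0.956 and 0.961 in the control pools. Its difference of 0.13 ± 0.08 did not pass (adjusted p = 0.391) in limma, which moderates each gene's variance towards that of the other genes.

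Among the 7 genes of start site choice and subunit joining, none passed in limma. At an unadjusted p under 0.05, 1 was higher, against 12.7% of all genes. That gene was eif6, whose protein keeps the large ribosomal subunit apart from the small one. Its ratios were 1.04, 1.29 and 1.1 in the beclomethasone pools and 0.962, 0.875 and 0.695 in the control pools, without overlap (0.44 ± 0.15, adjusted p = 0.12). Eif5, the GTPase activator of eIF2, had 0.27 ± 0.25 (adjusted p = 0.595), and its lowest value, 0.595, was that of control pool 3. Eif5b, the GTPase of subunit joining, had -0.16 ± 0.10 (adjusted p = 0.431), and eif1axb had -0.19 ± 0.12 (adjusted p = 0.416). Of the 3 probe sets of eif1axb, 1 had -0.48 ± 0.13 (adjusted p = 0.0735 over all probe sets) without overlap, and the others had -0.03 and -0.06. The genes of eIF5A, a factor that carries the modified residue hypusine and helps ribosomes past difficult sequences, had values of 0.02 ± 0.10 (eif5a, adjusted p = 0.913) and -0.27 ± 0.15 (eif5a2, adjusted p = 0.34). The probe sets of eif5a disagreed in sign, at -0.27 ± 0.11 and 0.32 ± 0.13.

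Among the initiation genes, 1 of the 15 cap and helicase genes of the eIF4 group passed (6.67%, against 8.83% of all genes in either direction). Eif4a2, which encodes a form of the RNA helicase that unwinds mRNA leaders, had ratios of 0.824, 0.880 and 0.734 in beclomethasone pools 1 to 3, and 1.49, 1.12 and 1.17 in control pools 1 to 3. All 3 beclomethasone pools lay below the lowest control pool. Eif4a2 fell by 0.62 ± 0.14 on the log2 scale (1.54-fold lower, adjusted p = 0.0366). The call was lost without any 1 beclomethasone pool (adjusted p from 0.0736 to 0.122) and without control pool 2 (0.0515) or 3 (0.0737), while the difference stayed between -0.70 and -0.50 with any 1 array left out.

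The paralog eif4a1a had the opposite sign. Its ratios were 1.1, 1.12 and 1.05 in the beclomethasone pools and 0.691, 0.906 and 1.04 in the control pools (0.33 ± 0.15, adjusted p = 0.246). The groups did not overlap, control pool 3 lay close to the beclomethasone pools, and control pool 1 was the lowest. Its 2 probe sets gave 0.60 ± 0.17 (adjusted p = 0.0836) and 0.06 ± 0.18 (adjusted p = 0.896). Eif4a1b (-0.09 ± 0.16, adjusted p = 0.809) and eif4a3, a helicase of the exon junction complex (0.06 ± 0.12, adjusted p = 0.837), had overlapping groups. Paralogs of this kind are similar in sequence and may share signal on an array. Of the cap-binding genes, eif4ea had -0.21 ± 0.10 (adjusted p = 0.267), eif4e1c 0.14 ± 0.16 (adjusted p = 0.698), eif4e1b 0.13 ± 0.12 (adjusted p = 0.609), eif4e3 0.25 ± 0.10 (adjusted p = 0.192) and eif4e2rs1 -0.10 ± 0.13 (adjusted p = 0.711). The scaffold genes eif4g2a, eif4g2b, eif4g3a and eif4g3b ran from -0.07 to 0.07. Their probe sets disagreed in sign for eif4g2a (-0.22 and 0.08) and eif4g3a (-0.18, 0.04 and 0.35). The eif4e1b probe set had a median of 0.66, below 1, where the divisor of the ratio is unknown. The same held for 1 probe set of eif4e3 (0.71) and 1 of eif4g3a (0.55).

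The binding proteins of eIF4E, which block its use when they are not phosphorylated, did not share a direction. Eif4ebp1 had ratios of 1.06, 1.05 and 1.08 in the beclomethasone pools and 0.939, 0.947 and 0.858 in the control pools (0.22 ± 0.09, adjusted p = 0.187). Eif4ebp2 had 0.948, 0.929 and 0.878 in the beclomethasone pools and 1.17, 1.06 and 1.05 in the control pools (-0.25 ± 0.09, adjusted p = 0.154). Neither gene's groups overlapped, and they lay on opposite sides.

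Eif4ebp3l showed a split within the controls. Its ratios were 1.05, 1.16 and 0.949 in beclomethasone pools 1 to 3, against 1.08, 0.548 and 0.547 in control pools 1 to 3. Control pool 1 lay among the beclomethasone pools, and control pools 2 and 3 were at about the same low value. The difference was 0.61 ± 0.26 (adjusted p = 0.211), and 0.94 without control pool 1, where it passed (adjusted p = 0.0039). With any 1 other array left out the adjusted p lay between 0.322 and 0.457. Eif4enif1, the gene of the eIF4E transporter, had -0.15 ± 0.22 (adjusted p = 0.767), with its highest ratio, 1.49, in control pool 1.

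**Figure D2:**
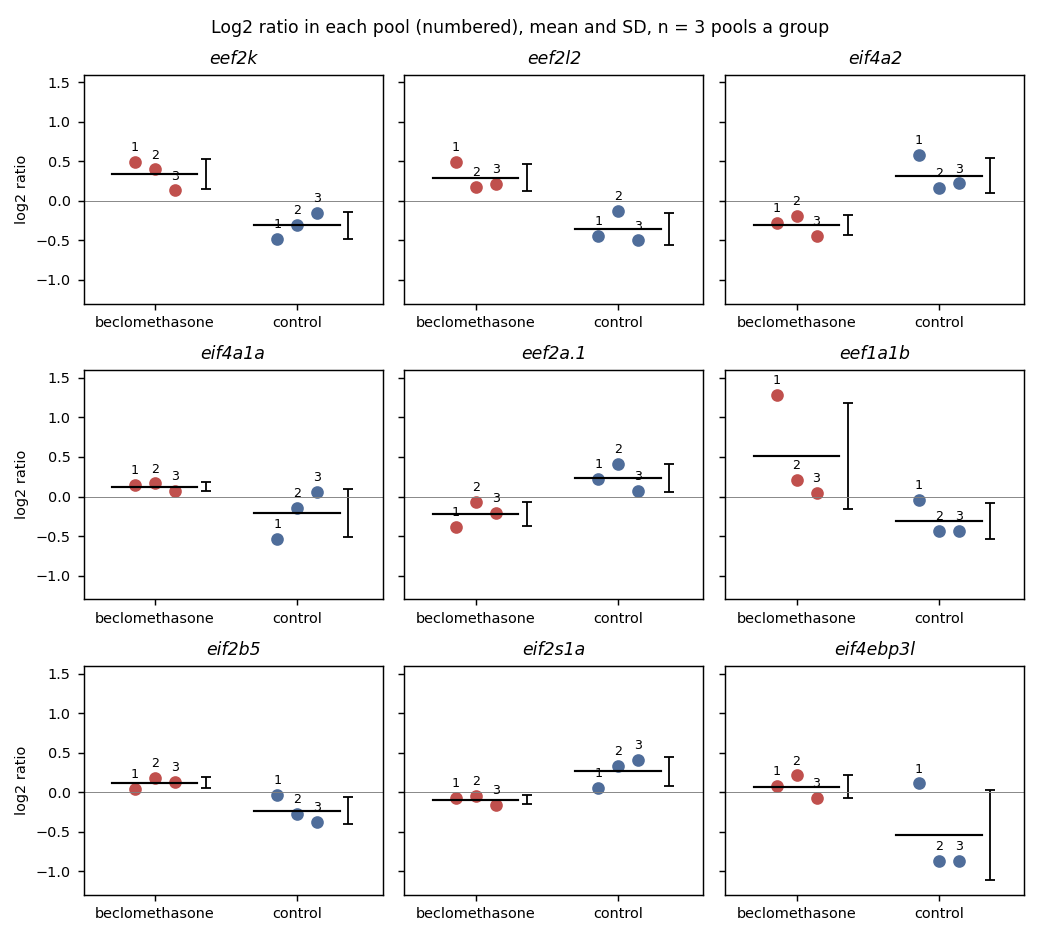
Log2 ratio of 9 member genes in each pool (points numbered by pool, red beclomethasone, blue control), with the group mean as a bar and the SD beside it (n = 3 pools per group). Eef2k, eef2l2 and eef1a1b are higher and eif4a2 lower in all 3 beclomethasone pools than in any control pool. Groups without overlap were found in 29.7% of all genes. Beclomethasone pool 1 stands far above the other pools in eef1a1b, and in eif4ebp3l control pool 1 lies among the beclomethasone pools.

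In the elongation group 2 of 13 genes (15.4%) rose and none fell in limma, where 4.24% of all genes rose and 4.58% fell. At an unadjusted p under 0.05, 4 of the 13 were higher and 1 was lower, against 12.7% and 11.4% of all genes. Its median difference was 0.05. Eef2k encodes the kinase that phosphorylates eEF2 and so slows elongation. Its ratios were 1.41, 1.32 and 1.1 in beclomethasone pools 1 to 3, and 0.717, 0.812 and 0.903 in control pools 1 to 3. The lowest beclomethasone pool lay above the highest control pool. Eef2k rose by 0.65 ± 0.14 (1.57-fold, adjusted p = 0.0291). The call was lost without beclomethasone pool 1 (adjusted p = 0.0966) or 2 (0.0964) or control pool 2 (0.0751), and the difference was 0.57 to 0.76 with any 1 array left out.

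Eef2l2, named as a gene like that of eEF2, rose by 0.65 ± 0.14 (1.57-fold, adjusted p = 0.0341). Its ratios were 1.41, 1.13 and 1.16 in the beclomethasone pools and 0.737, 0.918 and 0.707 in the control pools, without overlap. Of its 3 probe sets 1 passed, with 1.92, 1.18 and 1.24 in the beclomethasone pools against 0.459, 0.815 and 0.457 in the control pools (1.35 ± 0.28, adjusted p = 0.0348 over all probe sets). The other probe sets gave 0.40 ± 0.17 (adjusted p = 0.241) and 0.20 ± 0.13 (adjusted p = 0.467). The call was lost without any 1 beclomethasone pool (adjusted p from 0.0707 to 0.101), without control pool 1 (0.0525) or 3 (0.0987), and with centred arrays (0.0516). Skeletal muscle markers, of other cells that a caudal cut can include, were likewise highest in beclomethasone pool 1 and, among the controls, in control pool 2. Of 16 listed, 11 were measured, none passed in limma and 10 were higher at an unadjusted p under 0.05, against 12.7% of all genes. Their median log2 ratio was 0.90, 0.09 and 0.05 in beclomethasone pools 1 to 3 and -1.95, -0.05 and -1.54 in control pools 1 to 3. Their part in the eef2l2 difference was not tested.

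The gene of the eEF2 protein itself is present in several copies. Eef2b had ratios of 0.993, 1.13 and 1.01 in the beclomethasone pools and 1.08, 0.923 and 0.907 in the control pools (0.10 ± 0.11, adjusted p = 0.658), with overlap. Eef2a.1 had 0.768, 0.953 and 0.863 in the beclomethasone pools and 1.17, 1.33 and 1.05 in the control pools. Those groups did not overlap, and the difference of -0.46 ± 0.13 missed the threshold (adjusted p = 0.0765). Of the 3 genes of the eEF2 family, 1 thus rose (33.3%, against 4.24% of all genes). The other values did not pass and lay on either side of 0. With 3 genes, this share gives no result for the family.

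The eEF1A genes, for the factor that delivers charged tRNAs, had differences from 0.01 to 0.82 and none passed in limma. At an unadjusted p under 0.05, 2 of 4 were higher, against 12.7% of all genes. Eef1a1b had ratios of 2.43, 1.15 and 1.03 in beclomethasone pools 1 to 3, and 0.971, 0.740 and 0.738 in control pools 1 to 3. Beclomethasone pool 1 stood far above the other pools, and beclomethasone pool 3 was close to control pool 1. Its difference of 0.82 ± 0.32 was the largest of all members in size (adjusted p = 0.168), and it was 0.43 without beclomethasone pool 1. Eef1a1a had 0.933, 0.661 and 0.674 in the beclomethasone pools against 0.585, 0.583 and 0.587 in the control pools (0.35 ± 0.15, adjusted p = 0.194). Its median was below 1, so the divisor of its ratio is unknown. Eef1a1l1 differed by 0.01 ± 0.09 (adjusted p = 0.959), with a 95% interval from -0.20 to 0.22.

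The genes of the exchange factors that recharge eEF1A lay closer to 0. Eef1b2 had -0.002 ± 0.16, eef1g -0.01 ± 0.11 and eef1db -0.07 ± 0.10 (adjusted p from 0.737 to 0.996). Eef1e1, which by symbol counts here and whose protein is known in mammals as a part of the multi-synthetase complex, had -0.29 ± 0.14 (adjusted p = 0.284). The methyltransferase gene eef1akmt2 had 0.05 ± 0.12 (adjusted p = 0.866).

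None of the 24 synthetase genes passed in limma, against 8.83% of all genes. At an unadjusted p under 0.05, 2 were higher and 1 lower, against 12.7% and 11.4% of all genes. The median difference was 0.08, and 18 of 24 values (75.0%) were above 0, against 54.3% of all genes. After centring of the arrays, 16 of 24 and 52.1% of all genes were above 0, and after quantile normalization 17 of 24 and 46.3%. Of the 17 cytosolic enzymes, iars1 for isoleucine had the largest difference, 0.58 ± 0.25 (adjusted p = 0.221). Its ratios were 1.24, 1.27 and 1.02 in the beclomethasone pools and 0.510, 0.984 and 0.952 in the control pools, and control pool 1 lay far below the other pools. Tars1, for threonine, had 0.817, 0.932 and 0.963 in the beclomethasone pools and 1.13, 1.12 and 1.04 in the control pools (-0.28 ± 0.10, adjusted p = 0.147), without overlap.

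Rars1, for arginine, had 0.32 ± 0.15 (adjusted p = 0.253), with its highest ratio, 1.35, in beclomethasone pool 2. Eprs1, the fused enzyme for glutamate and proline, had 0.11 ± 0.10 (adjusted p = 0.611). The genes aars1 (alanine), kars1 (lysine), vars1 (valine) and farsa (phenylalanine) all lay between -0.003 and 0.02. Farsb, also for phenylalanine, had 0.11. The 95% interval of vars1 ran from -0.22 to 0.22. For qars1, the enzyme for glutamine, the 3 probe sets disagreed, from -0.23 ± 0.14 to 0.34 ± 0.10, and for cars1, for cysteine, the 2 probe sets gave -0.29 ± 0.10 and 0.04 ± 0.09.

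The 5 mitochondrial enzymes had values from -0.03 (fars2) to 0.36 (rars2). The probe sets of fars2 had medians of 0.56 and 0.66, so the divisor of its ratio is unknown. Rars2 had ratios of 1.38, 1.30 and 1.02 in the beclomethasone pools and 0.921, 0.959 and 0.977 in the control pools (0.36 ± 0.13, adjusted p = 0.138), without overlap. The other 4 had overlapping groups. The scaffold genes of the multi-synthetase complex were both above 0. Aimp2 had 1.24, 1.03 and 1.03 in the beclomethasone pools and 0.831, 0.887 and 0.966 in the control pools (0.30 ± 0.12, adjusted p = 0.165), without overlap. Aimp1a had 1.02, 1.01 and 0.989 in the beclomethasone pools and 1.03, 0.799 and 0.728 in the control pools (0.25 ± 0.14, adjusted p = 0.328), where control pool 1 lay with the beclomethasone pools.

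**Figure D3:**
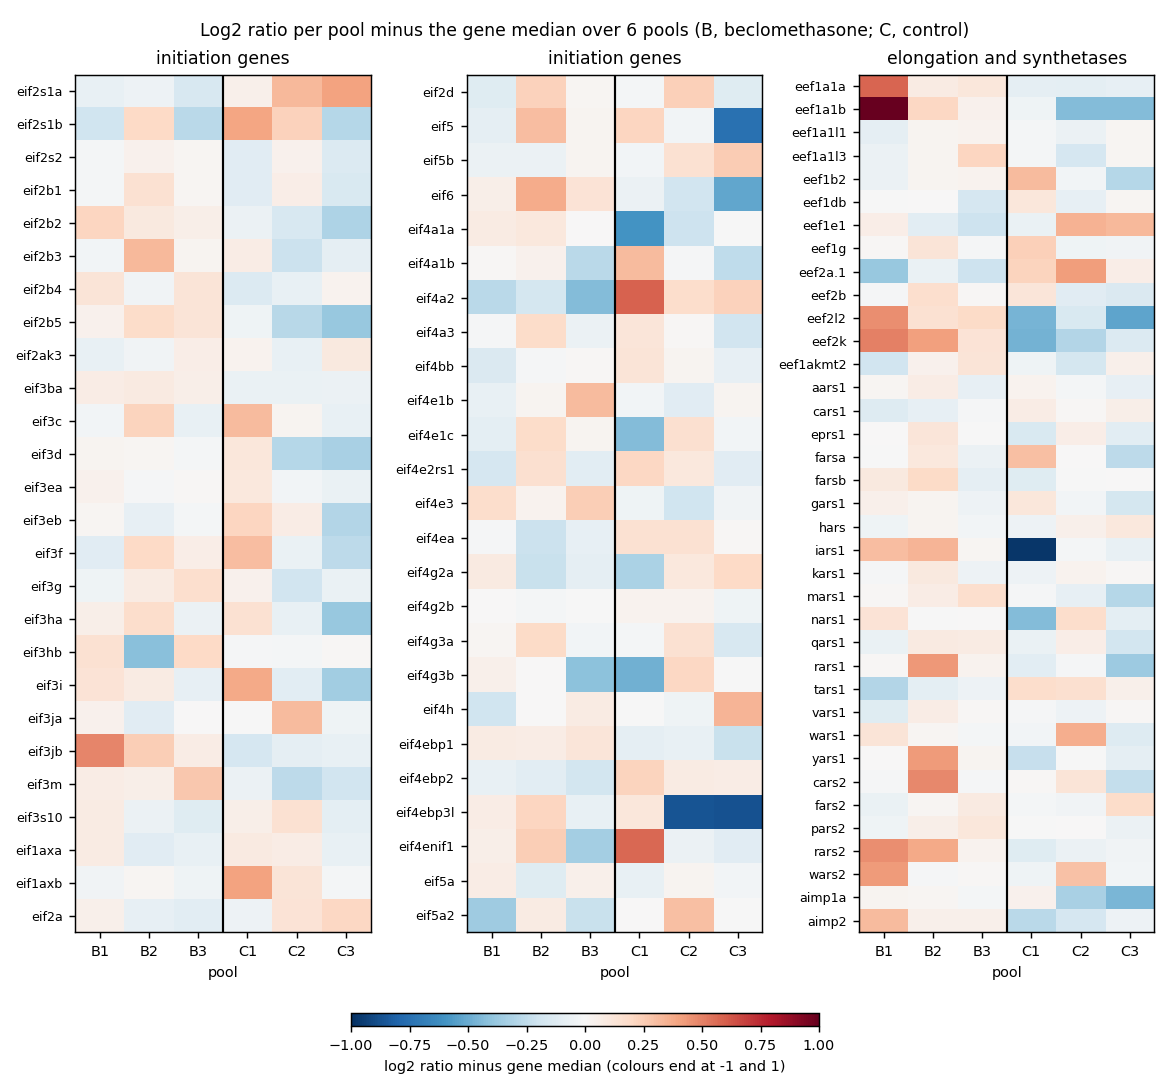
Log2 ratio of the 88 member genes in each pool minus the gene's median over the 6 pools, by colour (B1 to B3, beclomethasone; C1 to C3, control; genes in rows by role). Red is above and blue below the gene's median. The black line separates the groups, and several eIF3 rows are red in C1 and blue in C3.

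The control pools differed from each other in many members. Control pool 1 held the highest of the 6 values in 25 of the 88 members (28.4%), against 20.7% of all genes, and in 6 of the 14 eIF3 genes. Control pool 3 held the lowest value in 32 members (36.4%), against 18.1% of all genes. By group, control pool 1 was highest in 33.3% of initiation, 23.1% of elongation and 20.8% of synthetase genes. Beclomethasone pool 2 held the highest value in 23 of the 88 members, against 1162 of all 8793 genes. These were 12 of 51 initiation, 1 of 13 elongation and 10 of 24 synthetase genes. Among the cytosolic ribosomal protein genes, whose products form the ribosome itself, control pool 1 was highest in 55 of 65 (84.6%). Their median log2 ratio was -0.07, 0.03 and -0.004 in beclomethasone pools 1 to 3, and 0.19, 0.03 and -0.10 in control pools 1 to 3. The 3 beclomethasone medians lay between those of control pools 1 and 3. None of the 65 ribosomal protein genes passed in limma or at an unadjusted p under 0.05, and their median difference was -0.06. For the initiation genes, the per-pool medians were 0.002, 0.04 and -0.02 in the beclomethasone pools and 0.04, -0.01 and -0.09 in the control pools, with overlap. For the synthetases they were -0.002, 0.06 and -0.006 in the beclomethasone pools and -0.05, -0.001 and -0.09 in the control pools, again with overlap. For the elongation genes they were -0.01, 0.03 and 0.04 in the beclomethasone pools and -0.02, -0.12 and -0.04 in the control pools. These did not overlap, but the margin, between -0.011 in beclomethasone pool 1 and -0.019 in control pool 1, was small. The pooled SD of these medians was 0.040.

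**Figure D4:**
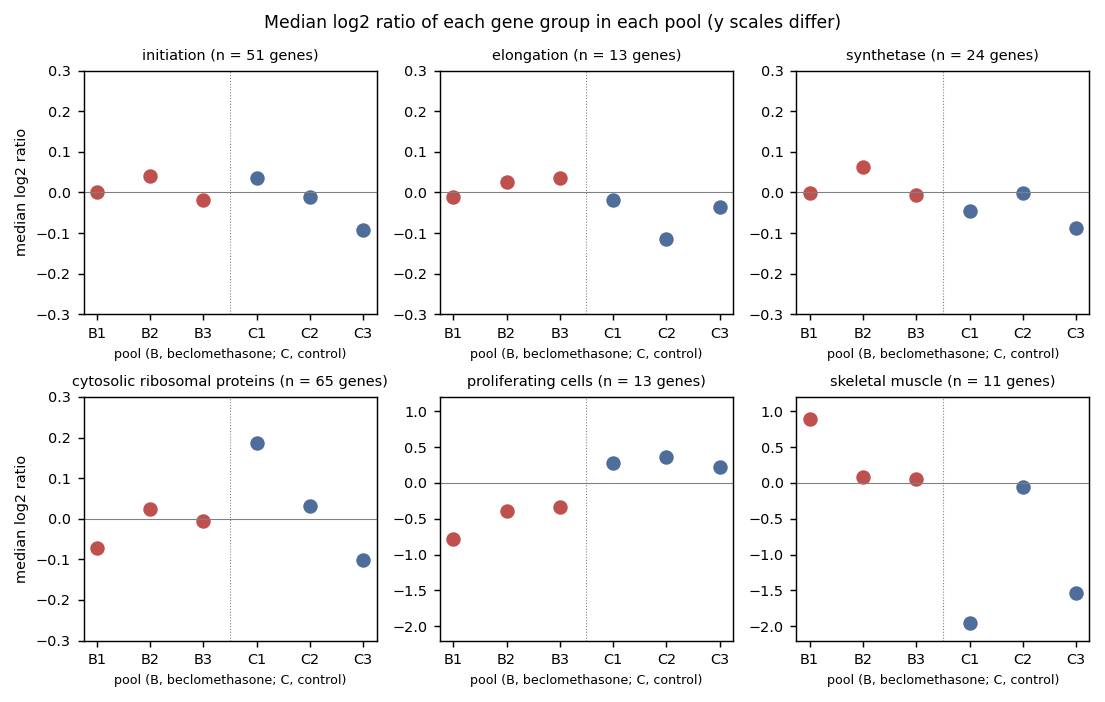
Median log2 ratio of each gene group in each pool (B1 to B3, beclomethasone, red; C1 to C3, control, blue), on a narrower vertical scale for the 4 translation groups than for the cell type lists. The ribosomal protein medians span the controls from 0.19 to -0.10 with the beclomethasone pools between, while the proliferating cell medians are below 0 in every beclomethasone pool and above 0 in every control pool.

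Markers of proliferation and of other cell types were read from the same arrays. Of 13 measured proliferating cell genes (of 14 listed), 10 fell (76.9%, against 4.58% of all genes). Their median difference was -0.81. Per-pool medians were -0.78, -0.39 and -0.33 in the beclomethasone pools against 0.28, 0.36 and 0.23 in the control pools. Yolk and liver genes, 11 of 12 listed, had medians of 0.75, 2.67 and 0.04 in beclomethasone pools 1 to 3. In control pools 1 to 3 the medians were -0.47, -0.34 and -0.14. Of these genes, 1 rose (9.09%, against 4.24% of all genes). Leukocyte markers, 7 of 8 listed, had medians of -0.11, 0.006 and -0.008 in the beclomethasone pools and -0.22, 0.27 and 0.42 in the control pools. Cxcr4b (0.73) and the lysozyme gene lyz (1.57) rose (28.6%, against 4.24% of all genes). Lcp1 (-1.26), spi1b (-1.03) and ptprc (-0.92) did not pass. They were lower at an unadjusted p under 0.05, against 11.4% of all genes. Of 8 measured epidermal markers (of 10 listed), 3 fell and 1 rose (50% together, against 8.83% of all genes). The part of these cell types in the member differences was not tested. Without beclomethasone pools 1 and 2, which had the highest yolk and liver medians, the fit held 1 beclomethasone pool against 3 control pools and called 0.0569% of all genes and no member, so its lack of calls says nothing about the members. The differences were then 0.44 for eef2k, 0.57 for eef2l2 and -0.77 for eif4a2.

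Genes that act with the factors were read from lists chosen for their known roles, with earlier results of these data known. The shares of these lists that passed are therefore descriptions and no independent support. Of 18 termination and mRNA-bound factors, 15 were measured and 1 rose (6.67%, against 4.24% of all genes), with a list median of 0.02. It was pabpc4, for a poly(A)-binding protein, with ratios of 2.16, 1.12 and 1.34 in the beclomethasone pools and 0.431, 0.878 and 0.511 in the control pools (1.36 ± 0.32, adjusted p = 0.0435). As with eef2l2, control pool 2 was the highest control and beclomethasone pool 1 the highest pool, as in the muscle markers, whose part was not tested. Its call was also lost with centred arrays (adjusted p = 0.0619), array weights (0.0735, where the difference was 0.95), a pseudocount of 1 (0.0631) and a fit per probe set (0.0529). The release factor gene gspt1 had 0.30 ± 0.09 (adjusted p = 0.0932), and dhps and dohh, which make hypusine on eIF5A, had 0.09 ± 0.10 and 0.02 ± 0.10 (adjusted p = 0.669 and 0.931).

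Of 23 listed genes of the integrated stress response, the programme that follows eIF2 alpha phosphorylation, 14 were measured, 3 rose (21.4%, against 4.24% of all genes) and none fell, and the median was 0.20, against 0.02 over all genes. Chac1, a glutathione-degrading enzyme, had ratios of 1.01, 1.16 and 1.34 in the beclomethasone pools and 0.872, 0.643 and 0.625 in the control pools. Its difference was 0.72 ± 0.17 (adjusted p = 0.0404). Of its 2 probe sets, that of smaller p had 1.31 (adjusted p = 0.0314 over all probe sets). The gene's difference is the mean of both, so the other lay well below 0.72. The rise of chac1 thus rests mostly on 1 probe set. Slc3a2b, for a subunit of amino acid transporters, had 1.40, 1.26 and 1.13 in the beclomethasone pools and 0.868, 0.456 and 0.561 in the control pools (1.06 ± 0.23, adjusted p = 0.0338). Mthfd2, of mitochondrial folate metabolism, rose by 0.43 ± 0.09 (adjusted p = 0.0346). The other measured genes of this list did not pass. The transcription factor genes atf4a and atf4b had 0.23 ± 0.12 (adjusted p = 0.293) and -0.05 ± 0.13 (adjusted p = 0.87), and the asparagine synthetase gene asns had 0.02 ± 0.18 (adjusted p = 0.967).

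Of 31 listed genes of mTOR and Myc growth signalling, 19 were measured, 1 rose and 1 fell (10.5% together, against 8.83% of all genes), and the median was -0.009. The gene that rose was ddit4, whose protein inhibits mTOR complex 1, at 2.40 ± 0.21 (adjusted p = 0.00154). Sesn3, of a sestrin family that also restrains mTOR complex 1, had ratios of 0.868, 0.819 and 0.791 in the beclomethasone pools and 1.53, 1.25 and 1.13 in the control pools, and fell by 0.65 ± 0.13 on the log2 scale (adjusted p = 0.0262). The kinase gene mtor itself had -0.07 ± 0.10 (adjusted p = 0.768), and myca had -0.57 ± 0.24 (adjusted p = 0.195). Of the 6 genes that passed in these 3 lists, ddit4 kept its call without any 1 of the 6 arrays. The others each lost it without any 1 beclomethasone pool (adjusted p from 0.0642 to 0.128). Chac1 and slc3a2b also lost it without control pool 2 (0.11 and 0.067) or 3 (0.114 and 0.0976), pabpc4 without control pool 1 (0.0608) or 3 (0.12), sesn3 without control pool 2 (0.06), and mthfd2 without any 1 control pool (0.0592 to 0.077).

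**Figure D5:**
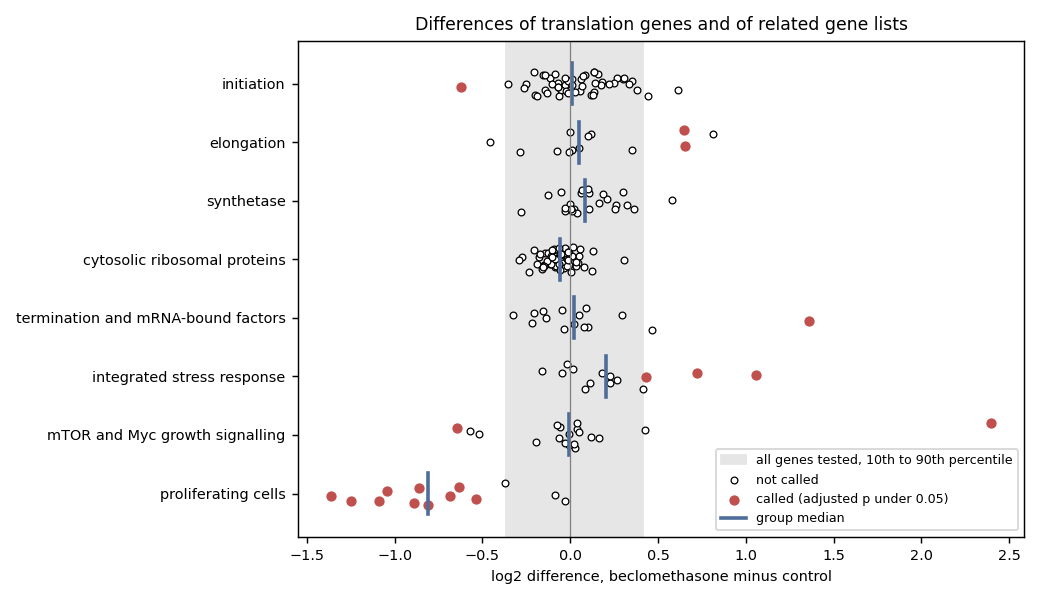
Log2 difference (beclomethasone minus control, horizontal axis) of each gene in the 3 member groups and in related lists, 1 point per gene, filled red where the adjusted p was under 0.05, with the group median as a blue bar. The grey band holds the middle of all genes tested, from the 10th to the 90th percentile (-0.36 to 0.42). Most initiation, synthetase and ribosomal protein genes lie inside the band, and most proliferating cell genes lie below it.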

How the data were processed

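Total RNA of 3 beclomethasone-exposed and 3 control pools was measured on Affymetrix zebrafish arrays. Per the submitters' processing notes the authors used GCRMA, a background correction and summary method. The deposited values are a linear ratio per probe set, read from the values: 12557 of 15502 probe sets had a median of 1 over the 6 arrays (within 1e-06), and 2944 had one below 1, where the divisor is unknown. Signal over background is therefore unknown. All 115 control probe sets were left out. Of the rest, 10795 had 1 gene symbol, 135 several and 4572 none, and 3 probe sets that pair a member with another symbol were not used. All 88 member symbols matched the RefSeq table.

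Log2 ratios, with no pseudocount and no filter, were averaged over a gene's probe sets. The two-sided test was eBayes after lmFit (limma 3.58.1, R 4.3.3), with Benjamini-Hochberg adjustment over 8793 genes and a threshold of 0.05. Members, roles and lists were chosen with earlier results of these data known. Named genes were every member that passed, a set named in any case, and list genes that passed. Up to 3 members of smallest p were also named in each finer group within a role, such as the eIF3 subunits. Further members were named after their values were seen, as examples of their group. Eif4ebp3, eif2ak1, eif2ak2, eif2ak4, eef1a2, eef2a and aimp1b were not matched. Exact permutation of 3 against 3 cannot give a two-sided p below 0.1 and was not used. Alternatives were other scalings, variance models, pseudocount, unit, filter and threshold, a replicate block and each array left out, and, added after the data were seen, leaving out beclomethasone pools 1 and 2. Their number, 6 arrays, limits the precision. No sequences of these genes were used here.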

Additional observations from a re-analysis of the deposited data

How the results depend on the processing

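Under the 16 alternatives, 174 values of group counts and medians stayed within 1.5 times (counts) or 1 SD (medians), 63 did not, and the counts of synthetase and ribosomal protein genes that passed stayed at 0 in all. With any 1 array left out, 0 to 1 elongation genes rose, 0 to 2 initiation genes rose and 0 to 2 fell, 1 to 4 of the other pathway genes rose and 0 to 2 fell, and 160 to 446 of all genes rose and 172 to 527 fell. The median differences then ran from -0.010 to 0.062 for initiation, -0.0083 to 0.14 for elongation and 0.043 to 0.15 for synthetase genes. Without control pool 1, eif2b5, eif4ebp3l and eif2s1a passed beside eef2k and eif4a2, and eef2l2 lost its call (adjusted p = 0.0525). In that fit 11.1% of all genes passed, against 8.83% in the main fit. Array weights gave 3 initiation genes that rose and 2 that fell, medians of 0.065 (initiation) and 0.11 (elongation), and 592 rises and 618 falls over all genes. The variance trend and the threshold of 0.1 each added 1 elongation gene that fell, eef2a.1, and that threshold gave 641 rises and 614 falls over all genes. Centring left 1 elongation gene that rose, eef2k. The fit per probe set gave an elongation median of 0.10 and 2 other pathway genes that fell, and the pseudocount of 1 a synthetase median of 0.041. The fit without beclomethasone pools 1 and 2 kept 1 exposed pool, assumed to vary like the others, so its lost calls say nothing about stability: no initiation, elongation or other pathway gene passed (0 each), 3 of all genes rose and 2 fell, and the synthetase median was 0.035.

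The replicate block left 0 initiation and 0 elongation genes that passed (eef2k adjusted p = 0.103, eef2l2 0.094, eif4a2 0.0777), 2 other pathway genes that rose (pabpc4 0.128, chac1 0.12 and mthfd2 0.0874 lost the call), and 178 rises and 213 falls over all genes. Deviations of samples with the same number correlated at -0.22, -0.08 and 0.08. Whether pools with the same number share more than the number is not stated. Among single genes, signs turned for values near 0: eef1a1l1 (-0.0016 with centring, and from -0.011 to 0.050 with 1 array left out), eef1akmt2 (from -0.022 to 0.14 with 1 array left out), eef1g (0.079 with weights, 0.0042 with quantiles, and from -0.058 to 0.084 with 1 array left out), eif2ak3 (0.050 without beclomethasone pools 1 and 2, and from -0.077 to 0.0072 with 1 array left out) and eif5a (-0.055 with weights, -0.27 per probe set, and from -0.010 to 0.087 with 1 array left out). Signs also turned for eif4e1c, at 0.14 in the main fit (from -0.029 to 0.27 with 1 array left out). The same held for eif4e2rs1, at -0.10 in the main fit (0.0013 with weights). The median size of the members' differences was 0.13. For single genes and counts, the fit per probe set took each gene's probe set of smallest p, a choice that favours calls. For eif5a, at 0.02 in the main fit, it took the probe set at -0.27 and not that at 0.32. The cause of the other changes was not tested. The 6 arrays limit the precision, and signal over background is unknown.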
